A study of Mus musculus with 21 samples.

Results

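The D cyclins, their kinase partners and the inhibitors of those kinases were followed across cultures of mouse CD8 T cells. The genes were taken by name: Ccnd2 and Ccnd3 for the D cyclins, Cdk4 and Cdk6 for the cyclin-dependent kinases (CDKs), Cdkn1a and Cdkn1b for the CIP/KIP inhibitors, and Cdkn2a, Cdkn2c and Cdkn2d for the INK4 inhibitors. These are 9 of the 17516 gene symbols in each count table, and all 9 had a row in all 21 tables. RNA was measured in single OT1 cells, CD8 T cells whose transgenic receptor recognises a peptide of ovalbumin. The starting library held naive cells on day 0, before any stimulus. All other cells were activated on day 0 with beads that carry antibodies to CD3 and CD28, so the bead stimulus was shared by every cultured group. They then received IL-2, IL-15 or IL-2v at 5 or 50 IU/mL and were sampled on days 3, 5 and 10, which gave 18 libraries. IL-2v is a mutant IL-2 named IL-2bg in the treatment labels. A further pair of libraries held bead-activated cells without added cytokine, sampled on days 3 and 5. Each of the 21 conditions had 1 library. The title of the study names attenuated IL-2 signalling as its subject. The treatment labels of 6 libraries titled as 50 IU/mL IL-2 or IL-15 name interleukin-3 or interleukin-16 in their place, and the titles were followed. The strain, age and number of the donor mice are not given in the sources used here.

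In the G1 phase of the cell cycle, D cyclins bind CDK4 or CDK6, and the complexes phosphorylate the retinoblastoma protein, which frees E2F factors to switch on genes for DNA synthesis. INK4 proteins bind CDK4 and CDK6 themselves and keep the D cyclins off. The CIP/KIP proteins p21 (Cdkn1a) and p27 (Cdkn1b) bind cyclin and kinase together, inhibit CDK2 complexes and can also help D cyclins to assemble with their kinases. In T cells, cyclins D2 and D3 and CDK6 are known to be induced by receptor and IL-2 signals, p27 is known as a barrier to division in quiescent cells, and p21 is a target of p53 as well as of other pathways.

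The genes lie on chromosomes 4, 5, 6, 9, 10 and 17 of the mouse genome (build GRCm38, annotation GENCODE vM21), and all 9 are protein coding. Cdkn2a (chr4:89274471-89294653, minus strand) has 2 annotated transcripts with separate first exons and shared later exons. The short one encodes p16INK4a and the long one encodes p19ARF, which acts on the p53 pathway and not on CDKs. Counts by gene symbol cannot tell p16INK4a and p19ARF apart. Cdk4 (chr10:127063534-127067920, plus strand) shares 19.7% of its exonic bases with Tspan31 on the opposite strand, Cdkn1a (chr17:29090976-29100727, plus strand) shares 7.68% with AC167363.2, and Ccnd3 shares 4.11% with Bysl. Ccnd2 shares 3.95% with Gm43126 and 3.91% with 9330179D12Rik, and Cdk6 shares 2.63% with Gm17590, all on the opposite strand. Whether counting used strand is not given in the sources used here, so reads from those stretches cannot be assigned with certainty. Ccnd3 also has a processed pseudogene, Ccnd3-ps, with which it can share reads.

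Promoter sequence is shown for the 3 genes with the widest spread between libraries, Cdk6, Cdkn1a and Cdkn2a. These were all higher at the high dose of IL-2 and of IL-2v on each day. RefSeq (GRCm38.p6) gave start sites for 8 of the 9 genes (not Ccnd2), in 12 windows, and the 250 bases before each start were searched on both strands for 5 short motifs. The motifs were a STAT site (TTCNNNGAA), an AP-1 site (TGANTCA), an E2F site (TTTNGCGC), a GC box (GGGCGG) and an E box (CACGTG), where N is any base. Sequences are written 5′ to 3′ on the strand of the gene, with matches in capitals.
Cdk6, chr5:3343643-3343892, plus strand: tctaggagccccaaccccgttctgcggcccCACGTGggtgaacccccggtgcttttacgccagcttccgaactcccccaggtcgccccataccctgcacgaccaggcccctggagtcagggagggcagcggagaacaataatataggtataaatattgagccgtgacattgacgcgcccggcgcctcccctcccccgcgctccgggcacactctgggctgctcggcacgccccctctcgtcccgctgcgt
Cdkn1a upstream start, chr17:29090729-29090978, plus strand: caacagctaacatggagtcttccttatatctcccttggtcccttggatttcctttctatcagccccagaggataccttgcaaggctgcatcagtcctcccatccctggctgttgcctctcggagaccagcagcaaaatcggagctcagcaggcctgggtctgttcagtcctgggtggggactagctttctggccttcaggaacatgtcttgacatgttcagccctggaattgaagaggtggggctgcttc
Cdkn1a downstream start, chr17:29093519-29093768, plus strand: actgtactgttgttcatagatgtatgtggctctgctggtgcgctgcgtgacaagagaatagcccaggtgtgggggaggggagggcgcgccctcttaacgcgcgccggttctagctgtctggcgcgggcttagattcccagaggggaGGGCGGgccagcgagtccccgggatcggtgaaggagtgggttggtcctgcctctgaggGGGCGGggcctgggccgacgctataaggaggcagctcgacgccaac
Cdkn2a p19ARF start, chr4:89294620-89294869, minus strand: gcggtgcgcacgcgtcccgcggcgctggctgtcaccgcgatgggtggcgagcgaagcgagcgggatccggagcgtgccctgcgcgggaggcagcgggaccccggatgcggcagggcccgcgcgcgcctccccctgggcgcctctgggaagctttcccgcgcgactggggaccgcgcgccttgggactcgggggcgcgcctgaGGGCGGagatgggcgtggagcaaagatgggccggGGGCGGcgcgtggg
Cdkn2a p16INK4a start, chr4:89282193-89282442, minus strand: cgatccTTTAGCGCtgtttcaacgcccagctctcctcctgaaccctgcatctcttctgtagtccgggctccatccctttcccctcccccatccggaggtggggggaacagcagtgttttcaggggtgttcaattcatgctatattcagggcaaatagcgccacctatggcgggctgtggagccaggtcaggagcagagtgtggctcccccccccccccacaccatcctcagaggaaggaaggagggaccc
The capitals mark an E box 220 bases before the Cdk6 start and a pair of GC boxes at both the downstream Cdkn1a start and the p19ARF start. They also mark 1 E2F match, 244 bases before the p16INK4a start. Among 32851 promoter windows of the same length, 32.7% held a GC box, 6.02% an E box, 1.13% an E2F site, 7.02% a STAT site and 6.75% an AP-1 site. The letters of the STAT and AP-1 motifs were found in none of the 12 windows. A p53 site was not among the motifs searched, so an unmarked window may still hold one. GC boxes were also found in windows not shown, of Ccnd3, Cdkn1b, Cdkn2c and Cdkn2d, genes not called with dose over all days. For contrast, the Cdk4 window, from the kinase that moved less with dose, held 4 E boxes and 1 GC box.
Cdk4, chr10:127063285-127063534, plus strand: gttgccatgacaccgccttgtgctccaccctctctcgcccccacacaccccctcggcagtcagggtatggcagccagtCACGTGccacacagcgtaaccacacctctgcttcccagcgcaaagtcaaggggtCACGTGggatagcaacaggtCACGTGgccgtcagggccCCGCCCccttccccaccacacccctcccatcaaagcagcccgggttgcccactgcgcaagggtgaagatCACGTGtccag

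After filtering, libraries held 3250 to 7105 cells and 10589950 to 32648496 unique molecular identifiers (UMIs, each marking 1 captured RNA molecule), with a median of 3016 to 5065 UMIs per cell. The fewest cells, the fewest UMIs and the lowest median all belonged to the library with 50 IU/mL IL-2 on day 5. Any 2 libraries shared 1 to 19 cell barcodes, at most 0.340% of the smaller library. The T cell marker Cd3d had a UMI in 93.0% to 99.5% of the cells of a library and Cd8b1 in 54.5% to 92.0%, and the other T cell markers read were Cd3e (72.0% to 92.8%), Cd3g (78.9% to 97.2%), Trac (56.4% to 78.6%) and Cd8a (37.0% to 74.2%). Cd4, the marker of helper T cells, reached at most 1.49% of cells. Of the myeloid markers Lyz2, Csf1r and Itgam reached at most 1.66%, while Cst3 was found in 20.7% to 41.3%. Of the B cell markers Cd79a and Ms4a1 reached at most 0.489%, and Cd79b 0.727% to 7.45%. Erythroid globin genes reached at most 0.835%. Of the NK cell markers Ncr1 reached at most 0.0157%, and Klrb1c up to 13.0%. Levels are CPM, the UMIs of a gene scaled to a common library total, with exact Poisson 95% intervals, and shares are percentages of cells with a UMI after each cell was thinned at random to 2000 UMIs, with exact Clopper-Pearson 95% intervals. These intervals cover counting error only. Conditions had 1 library each, and matched pairs differ in day or dose and are not replicates, so no test between conditions was run and no p-value is given. A gene is called changed in a comparison when it reached 20 CPM on average in either arm, moved the same way in every matched pair, and had a median difference of at least 1 on the log2(CPM + 1) scale, which is a doubling for well expressed genes and understates the change of low ones.

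Ccnd2, the D cyclin that many cytokines induce, was lowest 3 days after activation without cytokine and highest after long culture in IL-15. Its level was 485 CPM in naive cells, 229 CPM on day 3 without cytokine and 550.5 CPM on day 5 without cytokine. With 5 and 50 IU/mL IL-2 it was 285 and 402 CPM on day 3, 586 and 321 CPM on day 5, and 473 and 621 CPM on day 10. With IL-2v the same order of conditions gave 359 and 480.5 CPM, 533 and 655 CPM, and 513 and 557 CPM. With IL-15 it gave 375 and 473 CPM, 726 and 704 CPM, and 427 and 852 CPM. The highest level was 3.72 times the lowest, and in the order of the 21 levels 6 of the 20 neighbouring pairs had overlapping intervals. On day 3 all 6 cytokine cultures lay above the culture without cytokine, with intervals apart. On day 5 the library with 50 IU/mL IL-2 was the lowest of that day, at 321 CPM, while the other 6 libraries of that day held 533 to 726 CPM.

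Ccnd3, the D cyclin known for its role in lymphocyte expansion, ranged less, from 146 CPM (5 IU/mL IL-2, day 5) to 368 CPM (50 IU/mL IL-2, day 3), a ratio of 2.53. The median over libraries was 238 CPM, and naive cells held 209 CPM. The level was higher at 50 than at 5 IU/mL in all 9 dose pairs, and intervals were apart in 8 of them. Cultures without cytokine held 208 CPM on day 3 and 185 CPM on day 5, within the range of the cytokine cultures of the same days.

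**Figure D1:**
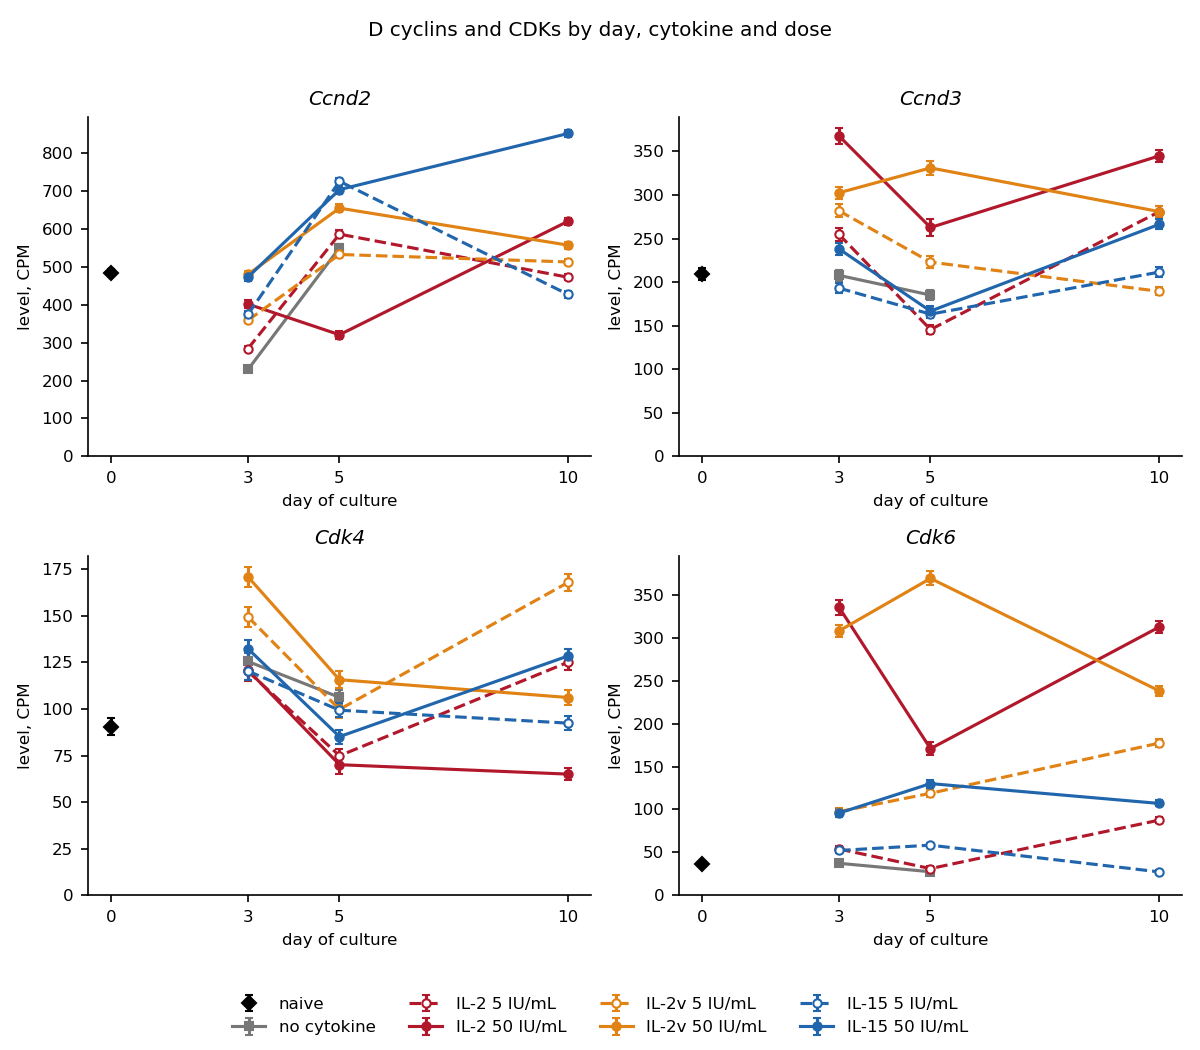
Levels of Ccnd2, Ccnd3, Cdk4 and Cdk6 in CPM (vertical axes, from 0) by day of culture (horizontal axes). Each point is 1 library with its exact Poisson 95% interval, and lines join libraries of 1 cytokine and dose. Within each cytokine Cdk6 is higher at 50 than at 5 IU/mL on every day, with 50 IU/mL IL-2v reaching 370 CPM on day 5, whereas Cdk4 stays between 65.0 and 171 CPM.

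Cdk6, one of the 2 kinases that D cyclins activate, had the widest range of the cyclins and kinases. It stood at 36.7 CPM in naive cells, 37.1 CPM on day 3 without cytokine and 27.3 CPM on day 5 without cytokine. With 5 IU/mL IL-2 it was 53.8, 30.9 and 87.6 CPM on days 3, 5 and 10, and with 50 IU/mL it was 336, 171 and 313 CPM. With 5 IU/mL IL-2v it was 97.5, 119 and 177 CPM, and with 50 IU/mL 309, 370 and 239 CPM. With 5 IU/mL IL-15 it was 52.1, 58.3 and 27.1 CPM, and with 50 IU/mL 95.8, 130.2 and 107 CPM. The 6 libraries with 50 IU/mL IL-2 or IL-2v thus included the 5 highest, and the highest level was 13.6 times the lowest. IL-2v at 5 IU/mL kept Cdk6 above IL-15 at 5 IU/mL on all 3 days. The share of cells with a Cdk6 UMI ran in parallel, from 4.62% (95% interval 4.07 to 5.21) with 5 IU/mL IL-15 on day 10 to 49.6% (48.2 to 51.0) with 50 IU/mL IL-2v on day 5. It was 6.73% in naive cells.

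Cdk4, the other kinase partner, was lowest with 50 IU/mL IL-2 on day 10, at 65.0 CPM, and highest with 50 IU/mL IL-2v on day 3, at 171 CPM, around a median of 116 CPM. Naive cells held 90.5 CPM, and cells without cytokine held 126 CPM on day 3 and 106 CPM on day 5. In the order of its levels, 16 of 20 neighbouring pairs had overlapping intervals, so most libraries next to each other were not separated. The lowest 3 libraries were all IL-2 cultures, at 65.0, 70.1 and 74.9 CPM, and the highest 3 were all IL-2v cultures, at 171, 168 and 149 CPM. The overlap with Tspan31 noted above applies to these values.

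Cdkn1a, which encodes p21, went from almost none in naive cells to its highest level in high dose IL-2. Naive cells had 2 UMIs in 18468030, or 0.108 CPM (95% interval 0.0131 to 0.391). Without cytokine the level was 16.7 CPM on day 3 and 1.87 CPM on day 5. With 50 IU/mL IL-2 it was 148, 181 and 361 CPM on days 3, 5 and 10, and with 5 IU/mL IL-2 it was 31.7, 6.54 and 46.7 CPM. IL-2v at 50 IU/mL gave 39.5, 112 and 152 CPM, and with 5 IU/mL IL-2v 22.9, 7.49 and 4.66 CPM. IL-15 at 50 IU/mL gave 16.4, 3.95 and 3.26 CPM, and with 5 IU/mL IL-15 12.8, 1.74 and 0.772 CPM. Levels therefore went up from day 3 to day 10 in the 50 IU/mL IL-2 and IL-2v cultures, and went down in both IL-15 cultures and with 5 IU/mL IL-2v. With 5 IU/mL IL-2 the level was also higher on day 10 than on day 3, with intervals apart, but lower on day 5 than on either. Among thinned cells, 44.3% (42.9 to 45.7) had a Cdkn1a UMI with 50 IU/mL IL-2 on day 10, 22.8% (21.6 to 24.0) with 50 IU/mL IL-2v and 0.419% (0.277 to 0.610) with 50 IU/mL IL-15 on that day. The share in naive cells was 0.0447%, and no cell type that lacks the gene was available as a further background.

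Cdkn1b, which encodes p27, was highest in several but not all day 5 cultures and in low dose IL-15 on day 10. It was 110.0 CPM in naive cells, 86.0 CPM on day 3 without cytokine and 197 CPM on day 5 without cytokine. Its lowest levels were 33.5 CPM with 50 IU/mL IL-2v on day 3 and 35.2 CPM with 50 IU/mL IL-2 on day 10, with intervals that overlapped. Its highest were 203 CPM with 50 IU/mL IL-2 on day 5 and 203 CPM with 5 IU/mL IL-15 on day 10, again with overlapping intervals. The median library held 88.8 CPM. The 3 libraries at the top after those were all from day 5, with no cytokine or with 5 IU/mL IL-2 or IL-2v, at 155 to 197 CPM. IL-15 at 5 IU/mL gave 129 CPM on day 5, also above naive cells, with intervals apart. Only 50 IU/mL IL-15 and 50 IU/mL IL-2v fell below naive cells on that day, at 100.3 and 79.8 CPM.

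**Figure D2:**
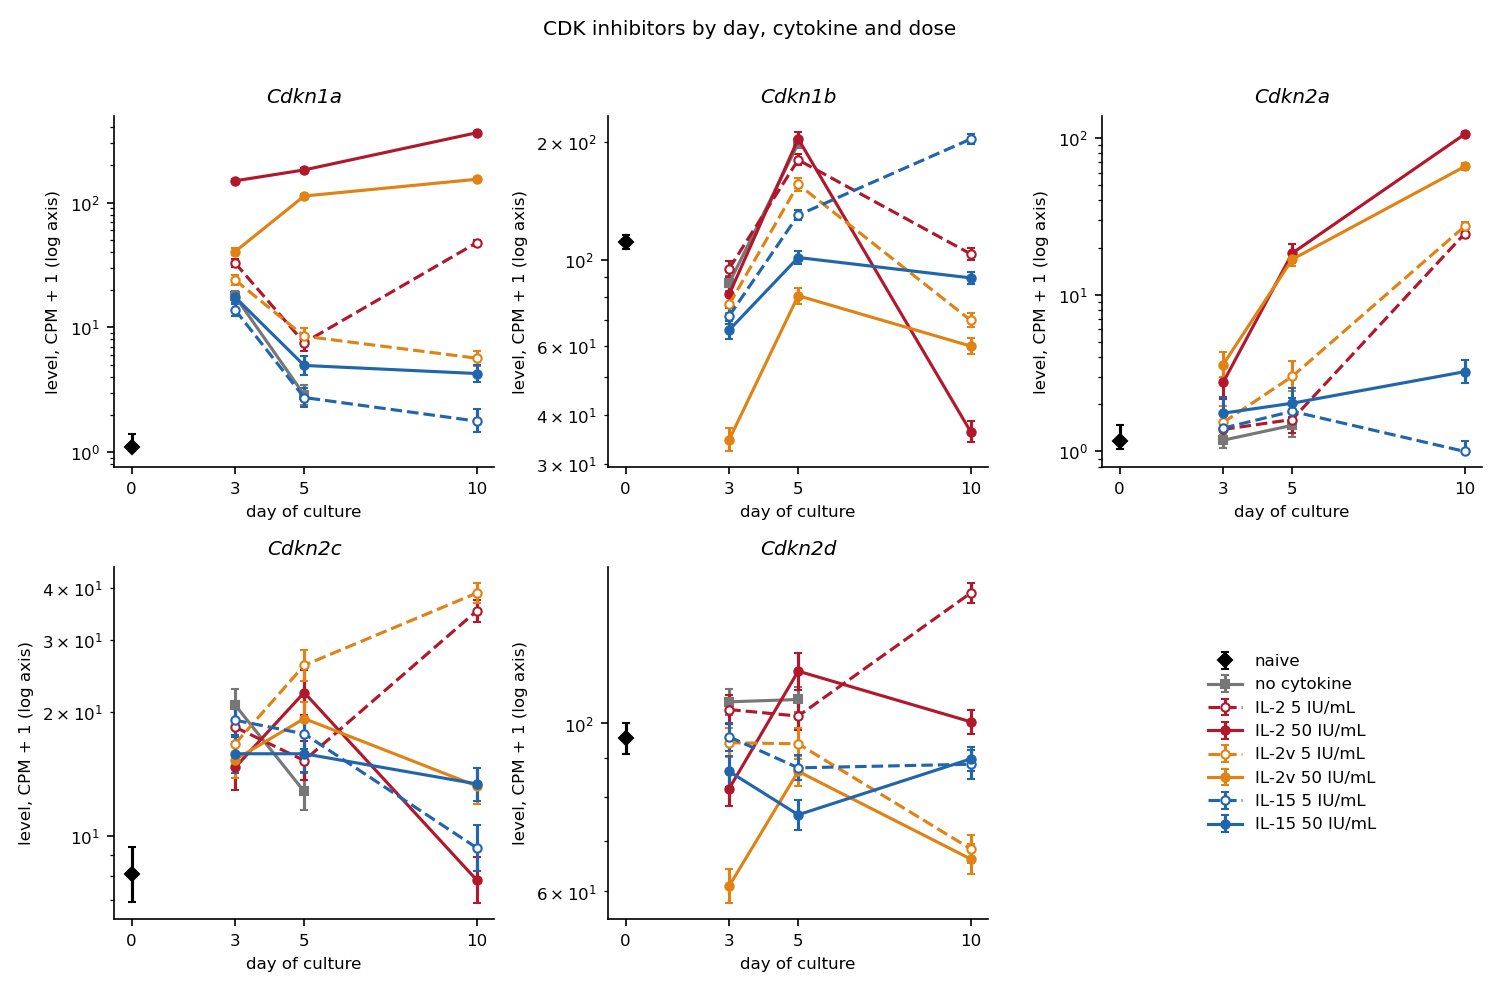
Levels of the 5 CDK inhibitor genes as CPM + 1 on log axes (vertical) by day of culture (horizontal). Each point is 1 library with its exact Poisson 95% interval, and lines join libraries of 1 cytokine and dose. Cdkn2a is highest with 50 IU/mL IL-2 and IL-2v on day 10, Cdkn1a is highest with 50 IU/mL IL-2 on day 10, and the lowest point of Cdkn2a, 5 IU/mL IL-15 on day 10, is a library with 0 UMIs.

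Cdkn2a was nearly silent until late culture. It stayed at or under 2.58 CPM in all 8 libraries of days 0 and 3 and had only 3 UMIs in naive cells. On day 5 it was 17.4 CPM with 50 IU/mL IL-2 and 15.8 CPM with 50 IU/mL IL-2v, and 0.467 to 2.01 CPM in the other 5 libraries of that day. On day 10 it was 23.5 and 105 CPM with 5 and 50 IU/mL IL-2, 26.3 and 64.7 CPM with 5 and 50 IU/mL IL-2v, and 2.23 CPM with 50 IU/mL IL-15. With 5 IU/mL IL-15 on day 10 no UMI was found among 23311265, which allows up to 0.129 CPM (3 counts in the library). At the same dose and day the level was 183 times that 3-count limit with IL-2 and 204.7 times with IL-2v. Against the upper end of the interval these ratios would be smaller. A Cdkn2a UMI was present in 15.3% (14.3 to 16.3) of thinned cells with 50 IU/mL IL-2 and in 10.7% (9.86 to 11.6) with 50 IU/mL IL-2v on day 10. With 5 IU/mL IL-15 it was 0 of 5394 cells, where 3 cells with a UMI would be 0.0556%. At this depth that count sets no limit on cells that express the gene. The NK cell marker Klrb1c was also found mostly in these libraries, in 6.49% and 8.71% of cells with 5 and 50 IU/mL IL-2 and 1.34% and 13.0% with 5 and 50 IU/mL IL-2v on day 10 before thinning, against at most 0.984% elsewhere. Ncr1, the other NK marker read, reached no more than 0.0157% in any library.

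Cdkn2c (p18INK4c), an INK4 inhibitor often seen in dividing cells, was low throughout, from 6.82 CPM (50 IU/mL IL-2, day 10) to 38.0 CPM (5 IU/mL IL-2v, day 10), around a median of 14.9 CPM. Its 2 highest libraries were the 5 IU/mL IL-2v and IL-2 cultures of day 10, at 38.0 and 34.3 CPM. Naive cells held 7.09 CPM, and their interval overlapped those of the lowest culture. Cdkn2d (p19INK4d) lay between 60.0 CPM with 50 IU/mL IL-2v on day 3 and 148 CPM with 5 IU/mL IL-2 on day 10. It was 94.7 CPM in naive cells and 106 and 107 CPM on days 3 and 5 without cytokine. In each of these 2 genes, 18 of the 20 neighbouring pairs in the order of levels had overlapping intervals, so most libraries next to each other were not separated. Libraries further apart in the order could be separated. For Cdkn2d the interval of the highest library was 143 to 152 CPM and that of the lowest 56.9 to 63.2 CPM.

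Activation was read from the day 3 library without cytokine against naive cells, 1 pair of libraries. Of 6 members that reached 20 CPM, Ccnd2 was called lower, by a log2 difference of -1.08, and none was called higher. Over all 6171 genes tested, 19.4% were called, so 1 of 6 members is near the background. Cdk6 moved by 0.02 and Ccnd3 by -0.01, while Cdk4 was 0.47 and Cdkn1b -0.35. Cdkn1a went from 2 UMIs to 372 and Cdkn2c from 131 to 441, both under the 20 CPM limit in each library. Cdkn2d moved by 0.16, and Cdkn2a, also under the limit, by 0.02. The Cdkn2c difference of 1.36 became -0.19 in cells that lacked UMIs of both Mki67 and Top2a. Among cells that lacked UMIs of both Mki67 and Top2a the Ccnd2 difference was -0.75 and no longer called. In those cells Cdk6 was -0.37 and Ccnd3 -0.34, with intervals apart, and Cdk4 was 0.09, with overlapping intervals. From day 3 to day 5 without cytokine, Ccnd2 (1.26) and Cdkn1b (1.19) were called higher, 2 of 6 members, against 13.1% of all 5785 genes tested. In cells without those UMIs the Ccnd2 difference was 0.95 and fell short of the call. Of the other members tested, Ccnd3 differed by -0.17, Cdk4 by -0.24, Cdk6 by -0.43 and Cdkn2d by 0.01. Under 20 CPM in both libraries, Cdkn1a differed by -2.63, Cdkn2c by -0.70 and Cdkn2a by 0.31. Several of these took the opposite sign among cells lacking both UMIs: Cdkn2c was 0.62 and Ccnd3 0.19, with intervals apart, and Cdk4 was 0.07 and Cdkn2a -0.19, with overlapping intervals. Cdkn1a was -1.68 and Cdk6 -0.08 there. The share of thinned cells with a Mki67 or Top2a UMI was 1.72% in naive cells, 50.7% on day 3 and 8.15% on day 5 without cytokine.

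Cdk6, Cdkn1a and Cdkn2a were all higher at 50 than at 5 IU/mL of IL-2 and of IL-2v on each day. The sizes of their differences did not run in parallel over days. With IL-2, from 5 to 50 IU/mL at matched day, Cdk6 was higher by 2.62, 2.43 and 1.83 on the log2 scale on days 3, 5 and 10. Cdkn1a was higher by 2.19, 4.60 and 2.93, and Cdkn2a by 0.996, 3.52 and 2.11. With IL-2v the Cdk6 differences were 1.65, 1.63 and 0.42, the Cdkn1a differences 0.76, 3.73 and 4.76, and the Cdkn2a differences 1.23, 2.48 and 1.27. For all 3 genes and both cytokines the intervals were apart on each day. These 3 genes were called with IL-2, 3 of 9 members against 6.99% of 5879 genes tested, and with IL-2v, 3 of 9 members against 3.01% of 5913. Without day 5, and so without the shallowest library, the IL-2 medians were 2.22 for Cdk6, 2.56 for Cdkn1a and 1.55 for Cdkn2a, and Cdkn2c was then called lower as well, at -1.25. With IL-15, Cdk6 alone was called, 1 of 6 members against 1.05% of 5523. Its differences there were 0.87, 1.15 and 1.94.

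The IL-15 cultures also held more Cdkn1a at the high dose on all 3 days, by 0.34, 0.85 and 1.27, at levels under 20 CPM. Whether the dose effect on any of these genes differed between cytokines was not tested, since each pair held 1 library per arm. The Cdkn2a calls rest on day 10: over days 3 and 5 alone the median differences were 2.26 with IL-2 and 1.85 with IL-2v, but the gene stayed under 20 CPM in both arms. In cells that lacked UMIs of both Mki67 and Top2a the median dose differences were 2.45 for Cdk6, 3.01 for Cdkn1a and 2.53 for Cdkn2a with IL-2, and 1.56, 3.42 and 1.79 with IL-2v. Cdkn1b was lower at the high dose on all 3 days with IL-2v (median -0.95) and with IL-15 (median -0.36), below the size of a call. The IL-2v difference passed the call with trimmed means of M values (-1.13), with totals without ribosomal protein and mitochondrial genes (-1.07) and without day 10 (-1.05). With IL-2 it was lower by 0.22 and 1.51 on days 3 and 10, and higher by 0.18 on day 5. Cdkn2c was lower at the high dose on day 10 with IL-2 (-2.17) and IL-2v (-1.56), and higher with IL-15 (0.52). The IL-2 median for this gene was -0.33 and the IL-2v median -0.43. Both took the opposite sign, 0.29 and 0.37, in cells that lacked UMIs of both Mki67 and Top2a. With IL-15, under 20 CPM, the Cdkn2c median was -0.16. Ccnd3 was higher at the high dose on each day with each cytokine. Its median was 0.53 in IL-2, 0.57 in IL-2v and 0.30 in IL-15. In cells that lacked UMIs of both Mki67 and Top2a, 2 of the 3 IL-15 pairs were higher and 1 was lower (-0.12), all with intervals apart. The Ccnd2 medians in IL-2, IL-2v and IL-15 were 0.39, 0.30 and 0.34. In the same order, those of Cdk4 were -0.09, 0.19 and 0.14, and those of Cdkn2d -0.35, -0.12 and -0.15. Of these, Ccnd2 was higher and Cdkn2d lower on all 3 days with IL-2v, and the other series held both signs. Cdkn2a with IL-15 was higher at the high dose on all 3 days, by a median of 0.32, under 20 CPM. Its intervals were apart in 1 of these pairs and overlapped in 2, and on day 5 each dose held 24 UMIs.

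**Figure D3:**
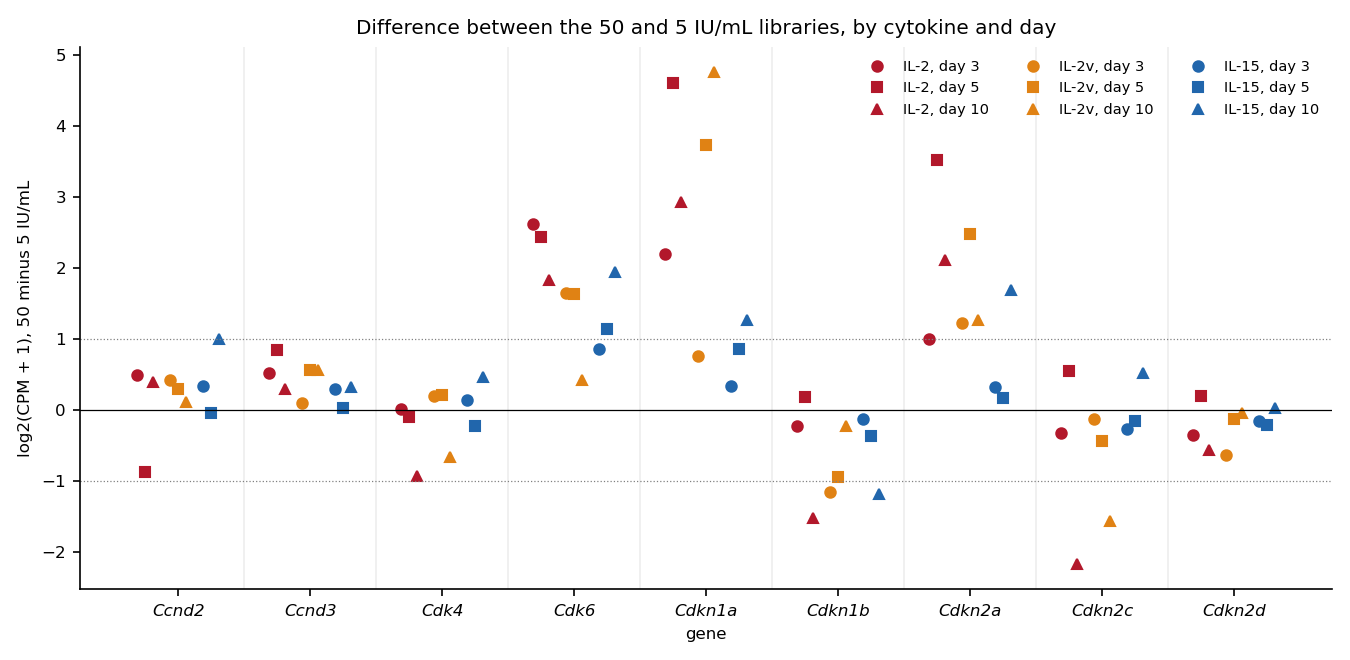
Difference in log2(CPM + 1) between 50 and 5 IU/mL (vertical axis) for each gene (horizontal axis), with 1 point per cytokine (colour) and day (shape), each from 1 pair of libraries. Dotted lines mark a difference of 1 in either direction. Cdk6, Cdkn1a and Cdkn2a lie above 0 in all 9 pairs, and Cdkn1b lies below 0 in 8 of 9. For Cdkn2a with IL-15 the Poisson intervals of the 2 doses overlapped in 2 pairs.

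IL-2v was compared with IL-2 at matched day and dose in 6 pairs. Of 9 members tested, 0 were called, against 1.32% of 5839 genes. Cdk4 was higher with IL-2v in 6 of 6 pairs, by a median of 0.46 (0.31 to 0.72), with intervals apart in all 6. Cdkn2d was lower with IL-2v in 6 of 6 pairs, by a median of -0.43 (-1.12 to -0.12), with intervals apart in 5. Cdkn1a was lower in 5 of 6 pairs, by -0.45 and -1.88 on day 3, -0.69 at 50 IU/mL on day 5, and -3.07 and -1.24 on day 10. The exception was 5 IU/mL on day 5, where the difference was 0.17 and the intervals overlapped. With day 5 left out the median for Cdkn1a was -1.56, past the limit of a call. Cdk6 was higher with IL-2v in all 3 pairs at 5 IU/mL, by 0.84, 1.91 and 1.01, and at 50 IU/mL the differences were -0.12, 1.11 and -0.39. Cdkn1b was lower in 5 of 6 pairs, by a median of -0.44. The share of thinned cells with a Mki67 or Top2a UMI was higher with IL-2v in all 6 pairs, with overlapping intervals only at 5 IU/mL on day 3. At 5 IU/mL it was 56.6% against 54.9% on day 3, 34.1% against 12.5% on day 5 and 32.2% against 12.2% on day 10. At 50 IU/mL it was 78.3% against 63.9%, 60.0% against 46.9% and 17.8% against 8.14%. Among cells lacking both UMIs, Cdk4 was higher in 6 of 6 pairs by a median of 0.40, Cdkn2d lower in 6 of 6 by -0.71, and the medians of Cdk6 and Cdkn1a were 1.16 and -0.99. The remaining members had both signs, with medians of 0.19 for Ccnd2, -0.07 for Ccnd3, 0.15 for Cdkn2a and 0.10 for Cdkn2c. The pair at 50 IU/mL on day 5 includes the IL-2 library with the fewest UMIs.

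The IL-15 and IL-2 libraries were paired likewise. Cdkn1a was lower with IL-15 in 6 of 6 pairs, with a median of -3.92 and a range of -6.41 to -1.25, and all 6 pairs had intervals apart. It was the 1 member called of 8 tested, against 2.19% of 5718 genes. Cdk6 was lower in 5 of 6 pairs with a median of -0.96, and Ccnd3 in 5 of 6 with a median of -0.40. The exception for Cdk6 was 5 IU/mL on day 5, at 0.89, and without day 5 its median was -1.60, which passes the call. Ccnd2 was higher with IL-15 in 5 of 6 pairs, with a median of 0.35. Cdkn2a was lower in 4 of 6 pairs, by -4.62 and -5.03 on day 10 and -3.18 at 50 IU/mL on day 5, with intervals apart, and by -0.65 at 50 IU/mL on day 3, with overlapping intervals. Its median of -1.91 was not called because 2 pairs at 5 IU/mL had the opposite sign. In cells that lacked UMIs of both Mki67 and Top2a all 6 pairs were lower, and the gene was called at a median of -2.70, but the intervals overlapped in 2 of the 6, both at 5 IU/mL. On day 5 at that dose the difference was -0.0092, from 4 UMIs with IL-15 and 3 with IL-2. Cdk4 was higher with IL-15 in 5 of 6 pairs (median 0.20), Cdkn2d lower in 5 of 6 (-0.19) and Cdkn1b lower in 4 of 6 (-0.35). Without day 5 the Cdkn1b median was 0.34, of the opposite sign. Cdkn2c, under 20 CPM, had a median of 0.08.

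IL-2v exceeded IL-15 for Cdk6 in 6 of 6 pairs, by a median of 1.32 (0.89 to 2.67), and for Cdkn1a in 6 of 6, by a median of 1.65 (0.80 to 5.17). These were 2 called members of 8 tested, against 3.06% of 5810 genes. For Cdkn1a the call depended on the scale: with 10 CPM added in place of 1 CPM the median was 0.74. The Cdkn1a difference was 4.51 and 5.17 at 50 IU/mL on days 5 and 10, and 1.63 and 1.67 at 5 IU/mL, where both arms were under 10 CPM. Cdkn2a was also higher with IL-2v in 6 of 6 pairs, with a median of 2.04, but did not reach 20 CPM on average in either arm. It passed the call with totals without ribosomal protein and mitochondrial genes (2.16), without the expression filter (2.04), without day 3 (3.70) and without day 5 (2.69), and 3 members were called in each of those settings. Ccnd3 (median 0.40) and Cdk4 (0.34) were higher with IL-2v in 5 of 6 pairs. Lower in 4 of 6 were Ccnd2 (-0.08), Cdkn1b (-0.45) and Cdkn2d (-0.20), and Cdkn2c, at 0.13, was higher in 3 and lower in 3. The IL-2, IL-2v and IL-15 libraries each enter 2 of these 3 comparisons, so the comparisons are not independent of each other.

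**Figure D4:**
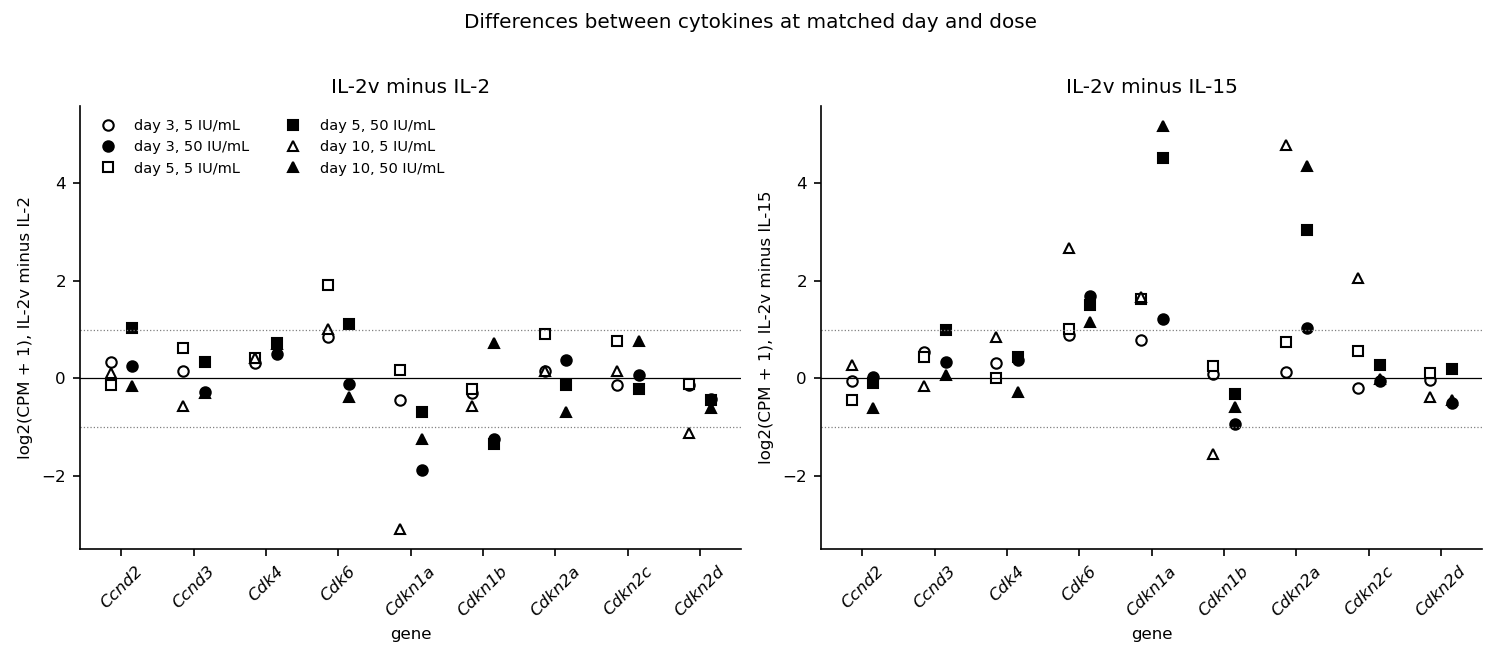
Difference in log2(CPM + 1) of IL-2v against IL-2 (left) and against IL-15 (right) on the vertical axes for each gene on the horizontal axes, with 1 point per matched pair of libraries (shape for day, filled for 50 IU/mL). Dotted lines mark a difference of 1 in either direction. Cdk4 lies above 0 in all 6 pairs on the left, and Cdk6 and Cdkn1a lie above 0 in all 6 pairs on the right.

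Time in culture was read over 6 pairs of equal cytokine and dose. From day 3 to day 5, 0 of 7 members tested were called, against 3.04% of 5912 genes. Cdk4 was lower on day 5 in 6 of 6 pairs, by a median of -0.60, and Cdkn1b was higher in 6 of 6, by a median of 0.97, with intervals apart in every pair for both genes. Ccnd2 was higher in 5 of 6 pairs (median 0.57) and lower with 50 IU/mL IL-2 (-0.32). Cdkn1a was higher on day 5 with 50 IU/mL IL-2 and IL-2v and lower in the other 4 pairs, with a median of -1.65. Ccnd3 was lower in 5 of 6 pairs (median -0.41), Cdk6 higher in 4 of 6 (0.21) and Cdkn2d lower in 4 of 6 (-0.02). Under 20 CPM in both arms, Cdkn2a was higher in 6 of 6 (0.67), with intervals apart in 3, and Cdkn2c in 3 of 6 (0.17). The Cdk6 median was -0.31 without the IL-2v cultures and -0.26 without the IL-15 cultures. The share of thinned cells with a Mki67 or Top2a UMI was lower on day 5 in all 6 pairs, at 46.9% to 78.3% on day 3 and 12.5% to 60.0% on day 5. Among cells lacking both UMIs, Ccnd3 was higher in 3 pairs and lower in 3 (median -0.18), while Cdk4 was lower in 6 of 6 (-0.48) and Cdkn1b higher in 6 of 6 (0.86). Cdkn2a was higher in 4 pairs and lower in 2 there (0.44), with overlapping intervals in 4. From day 5 to day 10, 0 of 8 members tested were called, against 1.69% of 5676 genes. Cdkn2a was higher on day 10 in 5 of 6 pairs, with a median of 2.25, and lower with 5 IU/mL IL-15 (-0.85). Cdkn1b was lower in 5 of 6 pairs (median -0.62) and higher with 5 IU/mL IL-15 (0.65). Ccnd3 was higher in 4 of 6 (0.38) and Ccnd2 lower in 4 of 6 (-0.14). Cdk4 (0.24), Cdk6 (0.15), Cdkn1a (0.12) and Cdkn2d (-0.10) were each higher in 3 pairs and lower in 3, and Cdkn2c, under 20 CPM, had a median of -0.39. The share with a Mki67 or Top2a UMI was lower again on day 10 in all 6 pairs, at 2.63% to 32.2%, with intervals that overlapped in the 5 IU/mL pairs of IL-2 and IL-2v. Cells lacking both UMIs gave other values: Cdk4 was higher in 6 of 6 pairs (median 0.40) and Cdkn1a in 4 of 6 (0.62), Cdkn2d had a median of 0.13 and Cdkn2c of 0.51, while Cdkn2a (2.27) and Cdkn1b (-0.71) kept their signs.

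Cells with a UMI of Mki67 or Top2a, genes of proliferating cells, were set against the remaining cells of the same library. Cdkn2c was higher in the cells with such a UMI in 21 of 21 libraries, with a median difference of 1.52 and intervals apart in 19. Its level in those cells ran from 11.2 to 68.7 CPM with a median of 25.8 CPM, and in the remaining cells from 4.89 to 22.4 CPM with a median of 7.79 CPM. It was the 1 member called of 8 tested, against 3.19% of 5772 genes. That call was lost with 10 CPM added in place of 1 CPM (0.93) and when at least 3 UMIs of a list of S phase and mitosis genes defined the class (median 1.39, with 1 library of opposite sign, 50 IU/mL IL-2v on day 3, at -0.46). Cdk4 was higher in 21 of 21 libraries (median 0.47, intervals apart in 19) and Cdkn2d in 20 of 21 (median 0.41, intervals apart in 16). Ccnd2 was lower in 20 of 21 libraries, with a median of -0.48 and intervals apart in all 20. Its level was 201 to 709 CPM in the cells with such a UMI and 289 to 883 CPM in the others. Ccnd3 was higher in 15 libraries and lower in 6, with a median of 0.18. Cdk6 was higher in 14 and lower in 7, and 11 of the 21 had overlapping intervals. Cdkn1b was lower in 15 and higher in 6, and 14 had overlapping intervals. Cdkn2a, under 20 CPM, was higher in 13 and lower in 7, with a median of 0.21.

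Cdkn1a differed in direction between cultures. It was higher in the cells with a Mki67 or Top2a UMI in 19 of 21 libraries, with intervals apart in 13 of them, and lower in 2, with a median difference of 0.89. With 50 IU/mL IL-2 it was 157 against 115 CPM on day 3, 212 against 139 CPM on day 5, and 311 against 370 CPM on day 10. The 50 IU/mL IL-2v cultures gave 39.5 against 38.9 CPM on day 3, with overlapping intervals, 123 against 79.6 CPM on day 5, and 132 against 161 CPM on day 10. The 2 libraries in which the remaining cells held more Cdkn1a were thus both high dose cultures of day 10. Cells with a Mki67 or Top2a UMI carried more UMIs in every library, with a median per cell of 3547 to 6424 against 2634 to 4958. When the class was called after thinning each cell to 2000 UMIs, the median before thinning was still higher in 21 of 21 libraries, at 3731 to 6723.5 against 2909 to 5189 UMIs. Called that way, the median difference of Cdkn2c was 1.69, that of Cdk4 0.40, that of Ccnd2 -0.55 and that of Cdkn1a 0.56.

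**Figure D5:**
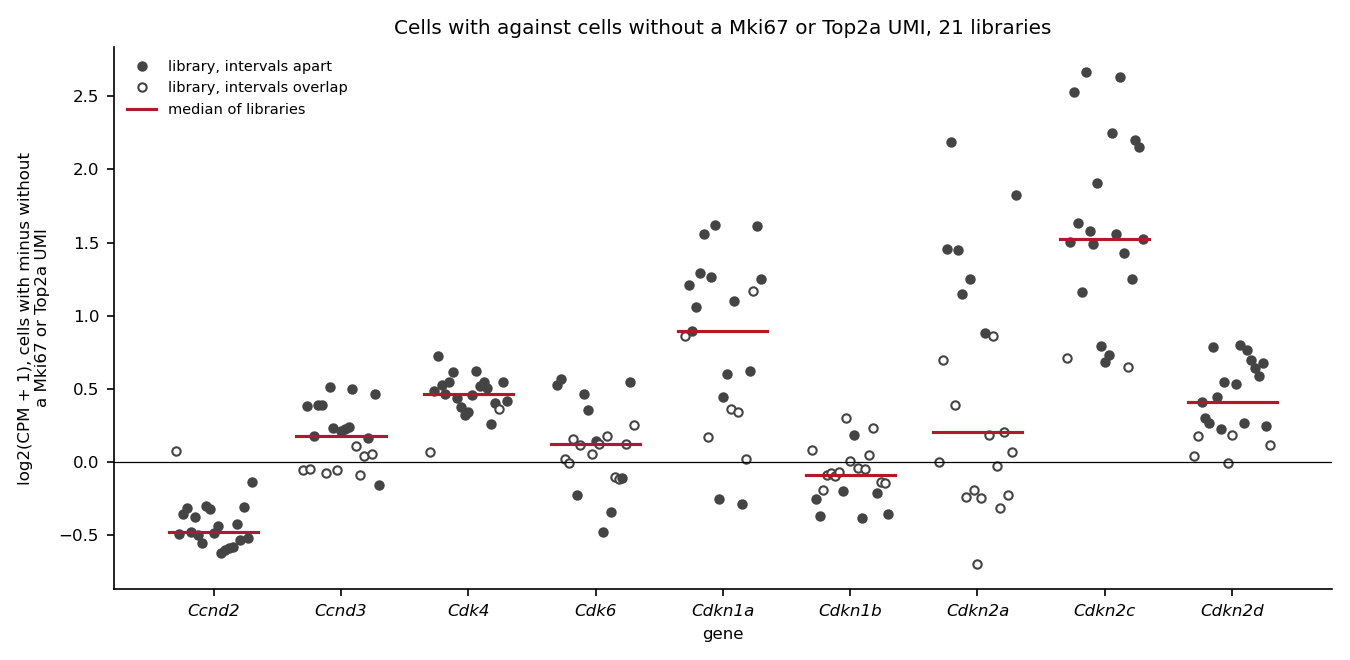
Difference in log2(CPM + 1) between cells with and cells without a Mki67 or Top2a UMI (vertical axis) for each gene (horizontal axis). Each point is 1 of 21 libraries, filled where the Poisson intervals of the 2 groups of cells were apart, and the line is the median of the libraries. All 21 points of Cdk4 and Cdkn2c lie above 0 and 20 of the 21 points of Ccnd2 lie below it.

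Within single libraries, thinned cells with a Cdkn1a UMI were compared with those without, as shares of cells that are not replicates of a culture. In the 50 IU/mL IL-2 culture of day 5, 54.8% (51.1 to 58.5) of cells with a Cdkn1a UMI also had a Mki67 or Top2a UMI, against 44.3% (42.2 to 46.4) of cells without. With 50 IU/mL IL-2v on that day the shares were 69.9% (66.6 to 73.0) and 58.0% (56.4 to 59.5). On day 10 the order was turned with 50 IU/mL IL-2, at 6.78% (5.74 to 7.95) and 9.22% (8.14 to 10.4). With 50 IU/mL IL-2v on day 10 the shares were 15.8% (13.7 to 18.1) and 18.5% (17.2 to 19.7), with overlapping intervals. A Cdkn2a UMI was found in 12.1% (8.91 to 16.0) of Cdkn1a-positive and 2.51% (2.12 to 2.95) of Cdkn1a-negative cells with 5 IU/mL IL-2 on day 10, and in 17.4% (15.8 to 19.1) and 13.6% (12.3 to 15.0) with 50 IU/mL. Cdk6 UMIs were about as frequent in both groups with 50 IU/mL IL-2 on day 10, at 45.8% (43.7 to 48.0) and 44.6% (42.7 to 46.5). At 5 IU/mL on that day they were more frequent in the Cdkn1a-positive cells, at 21.4% (17.3 to 26.0) against 12.9% (12.1 to 13.8), with intervals apart. In the other 9 IL-2 and IL-2v libraries read this way the intervals overlapped, as with 5 IU/mL IL-2v on day 10, at 27.9% (17.1 to 40.8) and 29.2% (28.1 to 30.4).

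The remaining G1/S genes were read as a list of 27, including cyclins E and A, CDK1, CDK2, the E2F factors and the retinoblastoma family, all with rows in the tables. After activation without cytokine, 11 of 19 tested were called higher and 0 lower, where 19.4% of all genes were called, led by Cdk1 (4.59), Ccna2 (4.53) and E2f8 (3.61), and the median of the 19 was 1.41 against -0.11 for all genes tested. From day 3 to day 5 without cytokine 11 of 19 were called lower and 0 higher, against 13.1% of all genes, led by E2f8 (-3.27), Ccna2 (-2.96) and Cdk1 (-2.92), with a median of -1.27 against -0.0016 for all genes. IL-2v exceeded IL-2 for 2 of 19, against 1.32% of all genes, E2f8 (1.26) and Cdk1 (1.17), with a list median of 0.72 against 0.06, beside the higher share of cells with a Mki67 or Top2a UMI given above, whose part in this was not tested, and exceeded IL-15 for 3 of 19, against 3.06%, Cdk1 (1.17), Ccna2 (1.03) and E2f8 (1.02). Against IL-15, too, that share was higher with IL-2v in all 6 pairs. Between IL-15 and IL-2, 0 of 15 were called, against 2.19% of all genes. Dose called 1 of 17 with IL-2, Cdkn2b (2.02), the INK4 gene beside Cdkn2a, which is no larger a share than the 6.99% of all genes. It called 0 of 19 for IL-2v, against 3.01%, and 0 of 14 for IL-15, against 1.05%. On day 5 against day 3, 4 of 20 were called lower, against 3.04% of all genes, led by E2f1 (-1.59), Cdk2 (-1.21) and Cdc25a (-1.12), and on day 10 against day 5 only E2f2 of 14 (-1.27), against 1.69%. In cells with a Mki67 or Top2a UMI 8 of 19 were called higher, against 3.19% of all genes, led by Ccna2 (4.75), Cdk1 (4.50) and Cks1b (2.99).

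Since Cdkn1a is a textbook target of p53, 20 other p53 targets were read beside it. After activation 2 of 10 tested were called lower, Rrm2b (-1.19) and Aen (-1.06), close to the 19.4% of all genes. Dose called 1 of 11 higher with IL-2, Sesn2 (1.76), close to the 6.99% of all genes. It called 2 of 11 with IL-2v, Sesn2 (2.31) and Aen (1.25), against 3.01%, and 0 of 10 with IL-15, against 1.05%. IL-15 against IL-2, where Cdkn1a had its median of -3.92, called 0 of 10, against 2.19% of all genes. The list median there was -0.15 against -0.01 for all genes. The part of p53 in the Cdkn1a levels was not tested. The list median was -0.32 against 0.06 for IL-2v versus IL-2, -0.08 against 0.10 for IL-2v versus IL-15, and 0.34 against 0.03, 0.13 against 0.10 and -0.07 against 0.02 for the dose of IL-2, IL-2v and IL-15. IL-2v called 0 of 10 against IL-2, where 1.32% of all genes were called, and 0 of 9 against IL-15, where 3.06% were. On day 10 against day 5 the death receptor gene Fas was called lower (-1.02), 1 of 11 against 1.69% of all genes. From day 3 to day 5 none was called with cytokine (0 of 10, against 3.04%) or without it (0 of 9, against 13.1%). Between cells with and without a Mki67 or Top2a UMI 0 of 10 were called, against 3.19%. Sesn2 is also a target of the stress factor ATF4.

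As a description of likeness over the 21 libraries, members were correlated with 5495 genes of at least 20 CPM on average. The members were not held to that limit. Cdkn2a, with a median of 1.03 CPM, and Cdkn2c each reached 20 CPM in 4 libraries, and Cdkn1a in 9. Libraries of 1 cytokine and neighbouring days share conditions, and depth and RNA content enter all genes alike. Cdkn1a was most like Nfil3 (Pearson r 0.96), Bhlhe40 (0.96) and Fam129a (0.96), and Cdkn2a was most like Id2 (0.91), Ifitm3 (0.91) and F2r (0.90). Cdk6 was most like Prmt5 (0.93), Sar1a (0.93) and Eprs (0.91), and Cdk4 most like Ppih (0.90), Snrpb (0.89) and Dtymk (0.88). Cdkn1b was most like Pnrc1 (0.95), Zfp260 (0.92) and Rsbn1l (0.92), Cdkn2d most like Hmox2 (0.89), Spata6 (0.86) and Ube2b (0.85), and Cdkn2c most like Selenoh (0.82), Mapre2 (0.79) and Ciao2a (0.77). Ccnd3 was most like Mafg (0.85), Jmjd6 (0.85) and Rnf126 (0.85). The closest genes to Ccnd2 were Esrra (0.76), Alkbh1 (0.75) and Emc6 (0.74), the lowest leading value of the 9 members. Between members, the 5 highest of the 36 values of r were 0.77 for Ccnd3 with Cdkn1a, 0.73 for Cdk6 with Cdkn1a, 0.72 for Ccnd3 with Cdk6, 0.69 for Cdk6 with Cdkn2a and 0.67 for Cdkn1a with Cdkn2a, and the lowest was -0.62 for Cdk6 with Cdkn1b.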

How the data were processed

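The deposited tables, 1 per library, hold raw UMI counts per gene symbol and cell barcode, whole numbers not normalized by the authors as far as the values show. Per the submitters' processing notes, Cell Ranger, Seurat 3.0.2, Seurat 4.0.1 and the build mm10 were named, with no role or order, and doublet treatment is not given in the sources used here. The extraction protocol in the labels describes sorted tumour T cells, and the libraries were treated as cultured cells. The growth protocol also names day 7, not analysed here.

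A cell was kept if it had 1000 or more UMIs, 500 or more genes and no more than 10% mitochondrial UMIs (2 cells were removed). UMIs were summed per library, and per class of cells with or without a Mki67 or Top2a UMI, and scaled to CPM with Python 3.11.15, numpy 2.4.6, pandas 2.3.3 and scipy 1.17.1. No doublet caller was run; leaving out cells above 2 times the library's median UMIs was an alternative, as were trimmed means of M values from edgeR 4.0.16. Doses were compared in 3 pairs of equal day, cytokines and days in 6 matched pairs. The call rule is given in the results, and its script was tested on simulated counts with counting noise only, which says nothing about false calls under spread between libraries. The 9 members, the lists and the comparisons were chosen with earlier results of these data known. All members were named in every comparison; of list genes, at most the 3 largest of those called were named, and for likeness the 3 highest correlations. Sequences came from RefSeq (GRCm38.p6) and gene positions from GENCODE vM21.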

Additional observations from a re-analysis of the deposited data

How the results depend on the processing

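Of 1215 values of a member under an alternative setting, 1183 kept their side of the call, 23 passed the call where the main value did not, 9 lost it and 0 changed direction while called. Among the 1183, 73 uncalled values took the opposite sign, in 34 combinations of member and comparison. No paired or additive model over the matched libraries was run. After activation the number of called members was 1, and it was 2 with at most 5% mitochondrial UMIs, 3 with totals without ribosomal protein and mitochondrial genes, 3 with no expression filter, 0 in cells lacking UMIs of Mki67 and Top2a, and 0 when cells with 3 or more UMIs of the S phase and mitosis list were also left out, a setting chosen after seeing the data. From day 3 to day 5 without cytokine the number went from 2 to 1 under each of those last 2 settings, and to 3, through Cdkn1a, with totals without ribosomal protein and mitochondrial genes (-2.80) and with no expression filter (-2.63). For the IL-2 dose it went from 3 to 4 without day 5 (Cdkn2c, -1.25). Without day 10 Cdkn2a lost its dose call with IL-2 (2.26) and with IL-2v (1.85). For the IL-2v dose Cdkn1b passed the call with trimmed means of M values (-1.13) and without day 10 (-1.05). Totals without ribosomal protein and mitochondrial genes also gave that call (-1.07). For IL-2v against IL-2 the number of called members went from 0 to 1 with trimmed means of M values (Cdkn1a, -1.13) and 1 without day 5. For IL-15 against IL-2 it went from 1 to 2 without day 5 and 2 in cells lacking UMIs of Mki67 and Top2a. For IL-2v against IL-15 it went from 2 to 1 with a pseudocount of 10 CPM, and was 3, through Cdkn2a, with totals without ribosomal protein and mitochondrial genes, no expression filter, without day 3 and without day 5. For day 5 against day 3 it went from 0 to 1 with trimmed means, 1 with totals without ribosomal protein and mitochondrial genes and 1 without IL-15, each time through Cdkn1b (1.04 to 1.13), and for day 10 against day 5 from 0 to 1 without IL-15 (Cdkn2a, 2.85). For cells with against without a Mki67 or Top2a UMI it went from 1 to 0 with a pseudocount of 10 CPM (Cdkn2c, 0.93) and to 0 when at least 3 UMIs of the S phase and mitosis list defined the class (Cdkn2c, 1.39). The share of such cells with 50 IU/mL IL-2v on day 3 was 78.3% and became 61.3% with thinning to 1000 UMIs and 86.9% with no thinning, and in naive cells 1.72% became 1.21% and 3.01%. Trimmed means moved the median of all genes by 0.12 from day 3 to day 5 without cytokine, -0.13 for the IL-2v dose, 0.11 for day 5 against day 3 and 0.15 for day 10 against day 5. Totals without ribosomal protein and mitochondrial genes moved it by -0.10 for IL-2v against IL-15 and for cells with against without a Mki67 or Top2a UMI. Other causes of these shifts were not tested.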
